A study of Mus musculus with 14 samples.

Results

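Wild type (WT) neurospheres were set against WT mouse embryonic fibroblasts (MEFs), with 3 libraries of each; members were chosen by their labels, which gave 6 of the 14 libraries in the series. All lines were derived from mouse embryos at E13.5. Heads gave the neurospheres, which are cultures of neural stem and precursor cells, and what remained of the body once its organs had been taken out gave the fibroblasts. Both groups were WT and untreated, each library came from its own line, and strain, sex, passage and culture medium are not given in the labels. The other 8 libraries, 3 of neurospheres and 5 of MEFs, carry a knockout-first allele of H3f3a, a gene for histone H3.3, and are called KO lines here; they serve only as a second, separate set of lines. Head and trunk tissue were grown as different cultures, so cell type, place of origin and culture cannot be told apart.

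Neural stem cells of the embryonic brain are kept dividing by SOX family transcription factors and Notch signalling, and give rise to neurons, astrocytes and oligodendrocytes. Fibroblasts of the trunk and limbs come mostly from mesoderm, secrete collagen and other matrix proteins, and pull on that matrix with contractile actin fibres. Hox genes mark position along the body axis and are normally silent in forebrain and midbrain.

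RNA was read by QuantSeq, which sequences the 3′ ends of polyadenylated transcripts, so that a count stands for about 1 transcript and not for its length. Counts assigned to genes came to 2550178, 2020564 and 2875436 in neurospheres 1 to 3 and to 2655616, 2744036 and 3296519 in MEFs 1 to 3. Levels are CPM, counts per library scaled with edgeR's TMM factors; a value written a ± b is the mean and SD over the 3 lines of a group (n = 3 each), and a log2 difference is neurospheres minus MEFs. A gene was called higher or lower at an adjusted p under 0.05 in edgeR's quasi-likelihood test. For a gene with no counts in one group the fold printed is a lower bound taken against 3 counts over the whole group, which is 0.404 CPM in neurospheres and 0.351 CPM in MEFs. In bulk RNA, fewer cells of a type and less RNA per cell cannot be told apart.

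Marker genes followed the labels. The stem cell factor Sox2 had 1272, 809.8 and 853 CPM in neurospheres 1 to 3, against 2.78, 47.7 and 2.47 CPM in MEFs 1 to 3. Col1a1, the first chain of type I collagen, had 9.72, 0.479 and 0 CPM in neurospheres 1 to 3, against 5841, 4989 and 6532 CPM in MEFs 1 to 3. The groups did not overlap for either gene. Haemoglobin genes had no counts in the 6 libraries, and none of 16 epithelial genes passed the filter on low counts. Lines also differed within a group. Levels of all tested genes had Spearman correlations across genes of 0.921 to 0.930 among neurospheres and 0.971 between MEFs 1 and 3, but only 0.900 and 0.902 between MEF 2 and the other two; between the cell types they were 0.564 to 0.623. Neurosphere 2 carried Hox genes and had no counts of the forebrain and midbrain gene Otx2, as given below, and MEF 2 was high in some limb and tendon genes. MEF 2 also stood above MEFs 1 and 3 in some neural genes, such as Sox2 and, as given below, Gpm6b and Serpine2. It stood below them in Ncam1, and in the sum of the neural stem cell and radial glia list. That sum was 2641, 1281 and 2257 CPM in MEFs 1 to 3. Ddx3y, a gene of the Y chromosome, had 136, 0 and 0.722 CPM in neurospheres 1 to 3, against 209.9, 0 and 0 CPM in MEFs 1 to 3, so the lines of each group were not all of one sex.

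Of 11084 genes tested, 2303 were higher in neurospheres and 2311 were lower, which is 20.8% each way and 41.6% in all. These shares are the background for every count below, beside a median log2 difference of 0.02 over all genes tested. The called genes had a median absolute log2 difference of 1.9, and 496 genes in each direction passed a fitted log2 difference of 4, that is 16-fold. A stricter test against 2-fold called 1190 genes higher and 1110 lower, 10.7% and 10% of those tested. In 6320 genes, or 57%, the 3 values of one cell type did not overlap those of the other. Among tested genes, 110 had no counts in MEFs and 131 had none in neurospheres. A gene found in only one cell type enters the test through that group, so the counts of list members called describe the list and are no test of it.

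**Figure D1:**
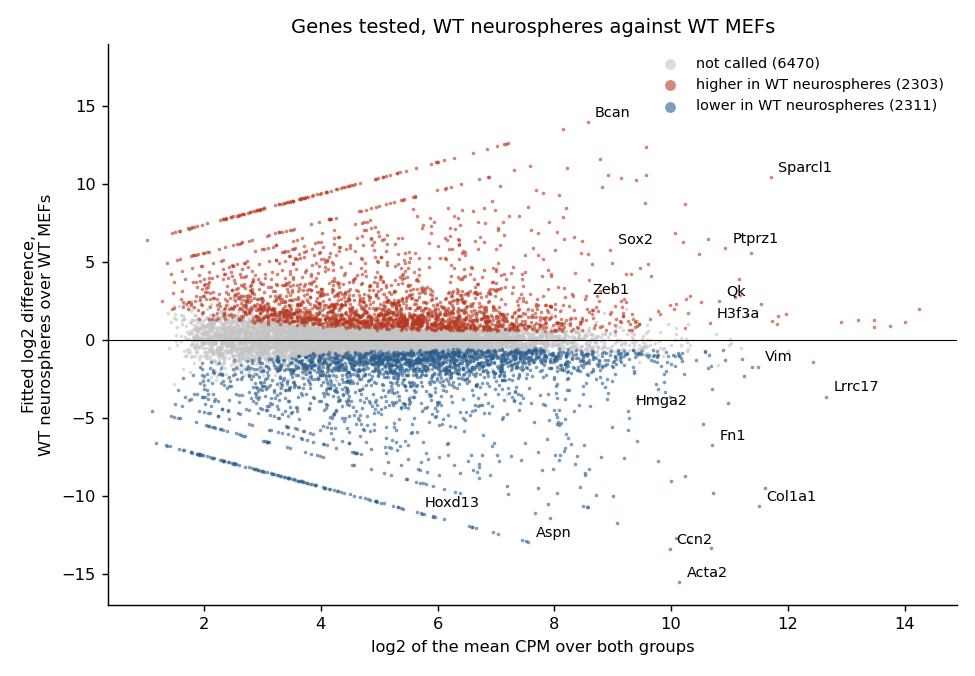
Fitted log2 difference, neurospheres minus MEFs (vertical axis), against mean level in log2 CPM over both groups (horizontal axis), with 1 point per gene tested. Red points are the 2303 genes higher in neurospheres, blue points the 2311 lower, and grey points the genes not called; the diagonal streaks at the outer edges are genes with no counts in one group, whose fitted value depends on a prior count.

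The KO lines, which share no library with the WT lines, gave 5885 called genes of 11417 tested, or 51.5%. Of the 4614 genes called in WT lines, 4511 were tested in KO lines and 4495 of these, 99.65%, had the same sign. In all, 4039 were called the same way, which is 87.5% of the WT calls and 68.6% of the KO calls, and 0 were called the opposite way. The difference between WT and KO lines in the cell type effect was tested as an interaction over 12117 genes: edgeR called 0, with 366 at an unadjusted p under 0.05, and DESeq2 called 4 (Xlr4a, Fras1, Pcdha12 and Gnai1), with 443 at an unadjusted p under 0.05. The DESeq2 log2 values of Xlr4a and Pcdha12, 21.4 and 30, are too extreme to be read as effect sizes. Those of Fras1 and Gnai1 were -5.17 and -1.86.

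**Figure D2:**
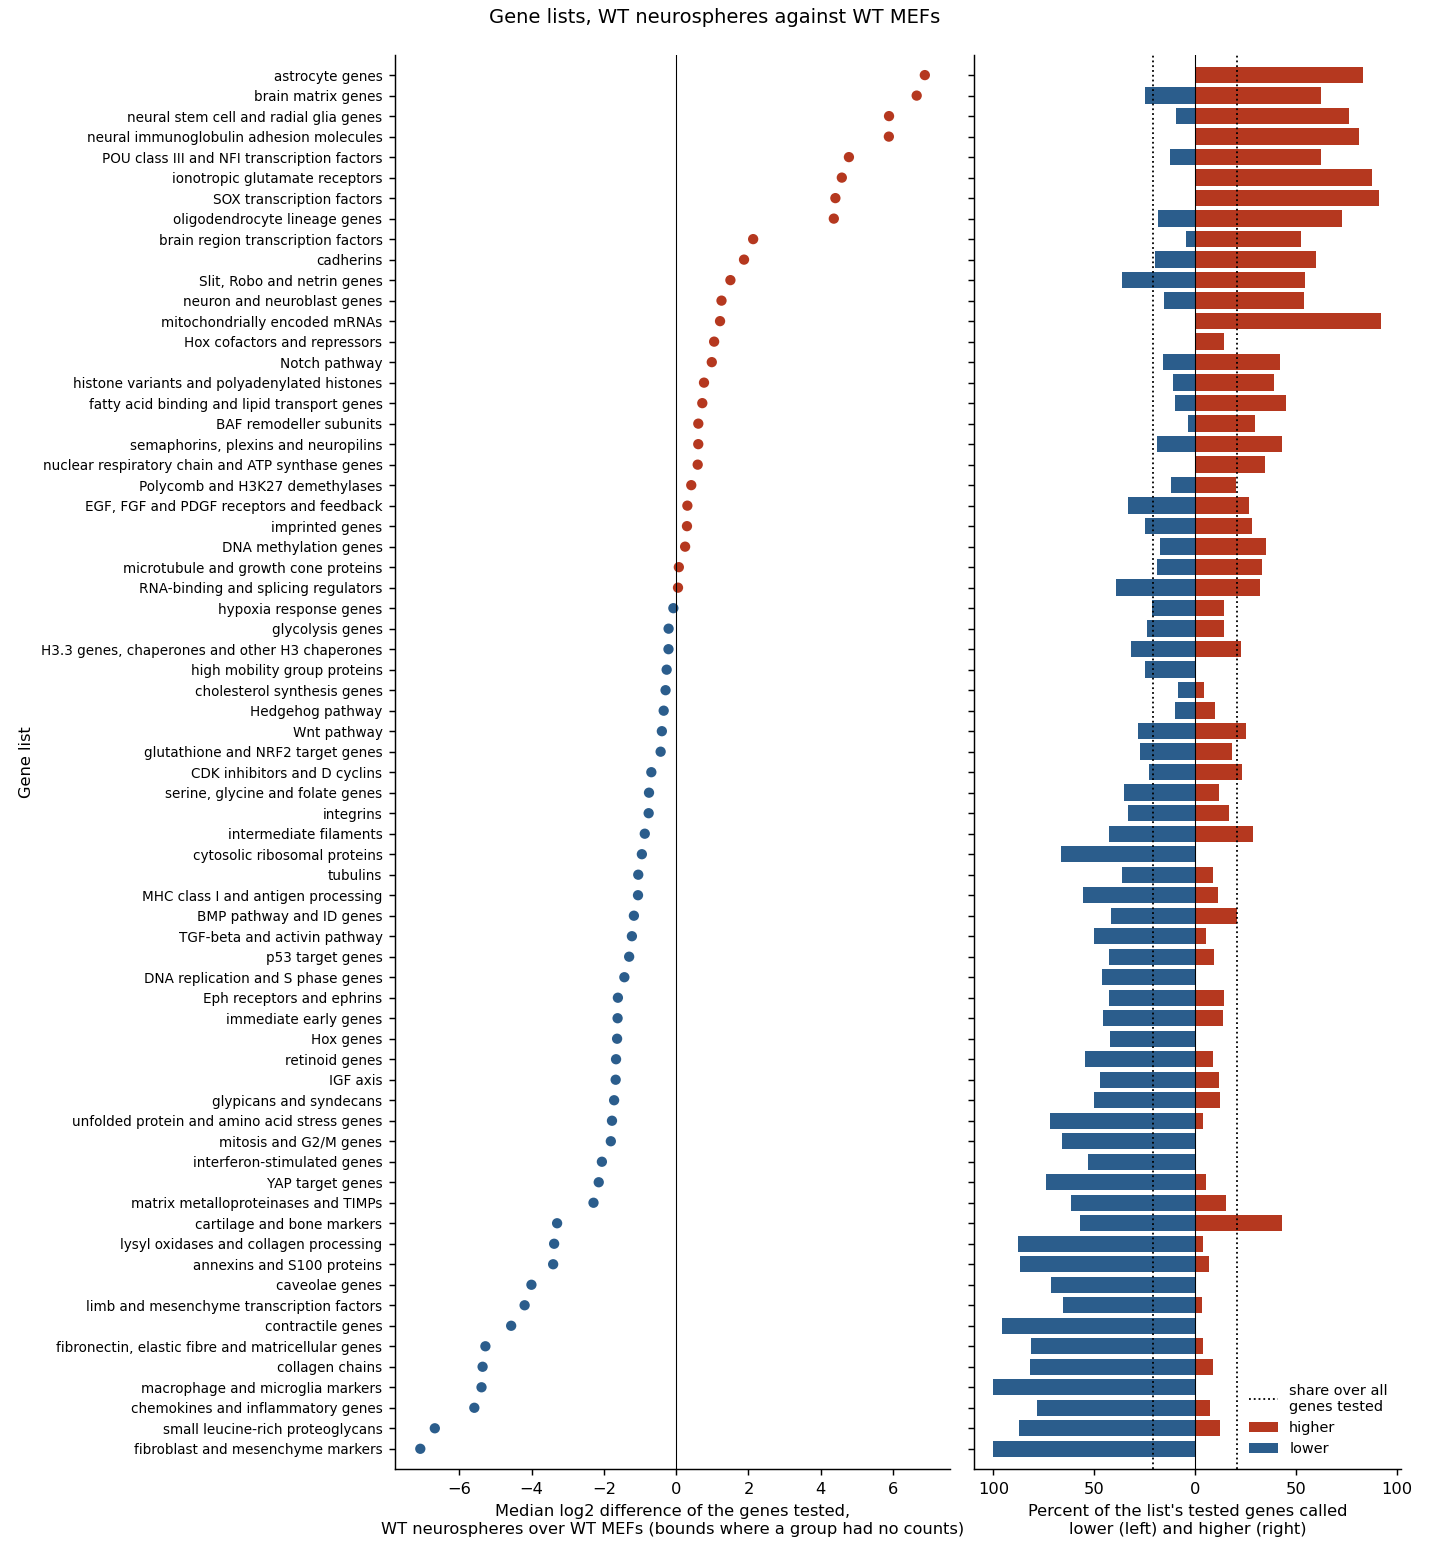
Median log2 difference with genes lacking counts in a group at their bound (left) and the percent of tested genes called higher or lower (right), for lists with at least 7 tested genes; dotted lines mark 20.8%, the share over all genes tested. Fibroblast, matrix and contractile lists lie at the low end and neural adhesion, astrocyte and stem cell lists at the high end.

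Among genes of at least 50 CPM in a group, the 12 with the largest folds upward were mostly genes of brain matrix, glia, synapses and neural regulation. Bcan encodes brevican, a proteoglycan of brain matrix (ENSMUSG00000004892.13, chromosome 3 from 87987531 to 88000230, minus strand), and had 761, 769 and 749 CPM in neurospheres 1 to 3, against no counts in any MEF line. That is at least 2165-fold higher (edgeR adjusted p = 5.84e-05). Olig2, a transcription factor of the oligodendrocyte and motor neuron lineages, had 535, 444 and 728 CPM in neurospheres 1 to 3, against no counts in any MEF line, at least 1621-fold higher. Gria2, an AMPA receptor subunit, was at least 821-fold higher; Lsamp, a cell surface adhesion protein of the limbic system, at least 743-fold higher; and Rfx4, a transcription factor of the developing brain, at least 657-fold higher. Atp1b2, a sodium pump subunit of glia, was at least 555-fold higher, and Astn1, which neurons use to migrate along glia, at least 441-fold higher. Tmem229a, whose role is poorly known, was at least 801-fold higher. Of the nuclear genes that were higher, those with the most counts in neurospheres included Sparcl1, a matricellular protein of astrocytes, with 6689.6 ± 3322 CPM in neurospheres and 4.74 ± 1.14 CPM in MEFs, and Gpm6b, a proteolipid of neural membranes, with 5166 ± 2082 CPM in neurospheres and 106 ± 146 CPM in MEFs. Txn1, the redox protein thioredoxin, had 3237, 1496 and 10046 CPM in neurospheres 1 to 3, against 1226, 812 and 955 CPM in MEFs 1 to 3; the neurosphere lines were all above the MEF lines but lay far apart from each other. Gm29216, a pseudogene annotated on chromosome 1, had 4713 ± 839 CPM in neurospheres and 2058 ± 295 CPM in MEFs; copies of mitochondrial sequence can share reads with mitochondrial RNA, so its counts are uncertain. Serpine2, a protease inhibitor also called glia-derived nexin, had 4312 ± 1741 CPM in neurospheres and 282 ± 269 CPM in MEFs. In MEFs 1 to 3 Serpine2 had 152, 591 and 102 CPM and Gpm6b 27.4, 275 and 17.0 CPM, so MEF 2 held most of the MEF counts of both.

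The 12 largest folds downward on the same rule were mainly in contractile, matrix and secreted signalling genes. Acta2 encodes smooth muscle α-actin (ENSMUSG00000035783.9, chromosome 19 from 34241090 to 34255590, minus strand) and had no counts in any neurosphere line, against 2898, 1288 and 2588 CPM in MEFs 1 to 3. It was at least 5594-fold lower (edgeR adjusted p = 0.000168). Ccn2, a matricellular growth factor, had 0, 0 and 0.361 CPM in neurospheres 1 to 3, against 2950.0, 2069 and 1009.8 CPM in MEFs 1 to 3, and Thbs1, thrombospondin 1, had 0.389, 0 and 0.361 CPM in neurospheres 1 to 3, against 3782, 3882 and 2154 CPM in MEFs 1 to 3. Neurospheres held only 1 count of Ccn2 and 2 of Thbs1, so no fold is given for them. Aspn, a small matrix proteoglycan, was at least 932-fold lower, Cthrc1, a secreted protein linked to collagen deposition, at least 502-fold lower, and Thbd, the thrombin receptor thrombomodulin, at least 647-fold lower. Thbd had 65.9, 675.9 and 41.4 CPM in MEFs 1 to 3, so MEF 2 held most of its counts. Il1rl1, the receptor for interleukin 33, was at least 863-fold lower, and Fam198b, a Golgi protein, at least 911-fold lower. Of the genes that were lower, those with the most counts in MEFs included Lrrc17, a secreted leucine-rich repeat protein, with 963 ± 363 CPM in neurospheres and 11952 ± 1940.3 CPM in MEFs, Actb, cytoplasmic β-actin, with 3033 ± 687 CPM in neurospheres and 8019 ± 749 CPM in MEFs, and Col1a2 with 8.58 ± 11.4 CPM in neurospheres and 6213 ± 1916 CPM in MEFs. Col1a2 was not at zero in every neurosphere: it had 21.8, 1.44 and 2.53 CPM in neurospheres 1 to 3, against 6672, 4109 and 7856 CPM in MEFs 1 to 3, and neurosphere 1 stood above the other two for several fibroblast genes.

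Neural stem cell and radial glia genes were mostly higher: 16 of 21 tested genes were higher and 2 lower, with a median log2 difference of 5.89, against 6.61 in the KO lines. Fabp7, a fatty acid carrier and classic radial glia marker, had 3265, 2309 and 1658 CPM in neurospheres 1 to 3, against 5.16, 4.66 and 7.10 CPM in MEFs 1 to 3. Every neurosphere line was above every MEF line, and the difference was 422-fold (log2 difference 8.72, SE 0.42, edgeR adjusted p = 4.13e-05). Slc1a3, the glial glutamate transporter GLAST, was 78.1-fold higher and Ptprz1, a receptor phosphatase that carries chondroitin sulfate, 59.1-fold higher. Nes, the intermediate filament nestin, had 398 ± 54.7 CPM in neurospheres and 88.6 ± 71.7 CPM in MEFs and was 4.50-fold higher. Hes5, a Notch effector, had 318, 98.6 and 15.5 CPM in neurospheres 1 to 3, against 0, 1.08 and 0 CPM in MEFs 1 to 3, with neurosphere 1 far above the other two. Pax6, an eye and forebrain regulator, was 90.04-fold higher. Not all genes of the list rose: Tnc, the matrix protein tenascin C, was 7.02-fold lower and Gli3, a Hedgehog pathway repressor, 6.62-fold lower, while Prom1 had too few counts to be tested.

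SOX factors were higher as a family. Among them 10 of 11 tested genes were higher and 0 lower, with a median log2 difference of 4.40, or 7.22 without MEF 2. Sox3 and Sox1, which with Sox2 make up the SOXB1 group that holds neural progenitors undifferentiated, had no counts in MEFs and were at least 395-fold and at least 176-fold higher. Sox21, of the SOXB2 group, had 385 ± 203 CPM in neurospheres and 0.12 ± 0.207 CPM in MEFs. Sox8 had 97.3 ± 41.7 CPM in neurospheres and 0.132 ± 0.229 CPM in MEFs, Sox9, needed for gliogenesis and also for cartilage, was 4.43-fold higher, and its cartilage partners Sox5 and Sox6 were 9.48-fold and 21.2-fold higher. Sox4 was 4.89-fold higher, while its close relative Sox11 had 349.5 ± 51.6 CPM in neurospheres and 179 ± 134 CPM in MEFs and was not called. Of the POU class III and NFI factors, 5 of 8 were higher and 1 lower. Pou3f3 and Pou3f4, which act in cortical and striatal progenitors, were 44.3-fold and 73.5-fold higher. Nfia, which switches progenitors to gliogenesis, was 16.98-fold higher, whereas Nfic, known from tooth root formation, was 2.32-fold lower, and Nfib was not called.

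**Figure D3:**
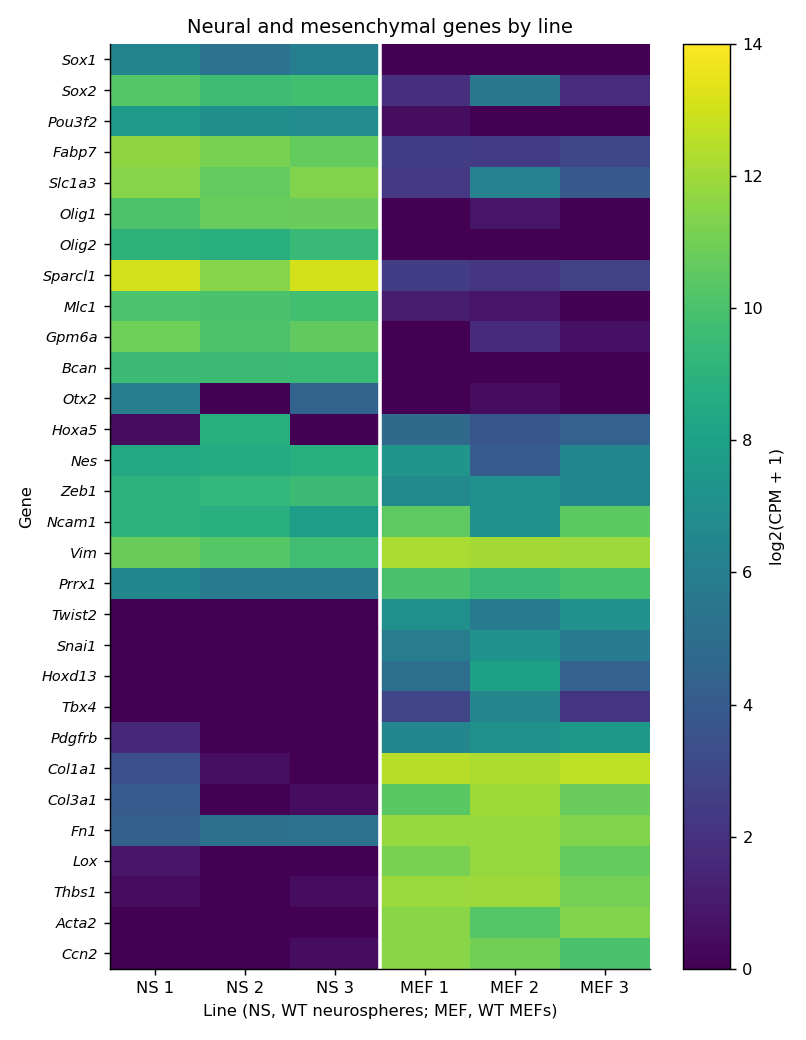
Level of 30 neural, regional, fibroblast and contractile genes as log2(CPM + 1) in each line, with neurospheres 1 to 3 on the left and MEFs 1 to 3 on the right. Sox2, Fabp7 and Olig2 are higher in every neurosphere line than in any MEF line, and Col1a1, Acta2 and Lox show the opposite.

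Glial genes were mostly higher. In the astrocyte list 10 of 12 tested genes were higher and 0 lower, with a median log2 difference of 7.05, or 6.88 with genes lacking counts in a group set at their bound, against 8.83 in the KO lines. Mlc1, a membrane protein of astrocyte endfeet, had 1030.0, 1008 and 878 CPM in neurospheres 1 to 3, against 1.19, 0.717 and 0 CPM in MEFs 1 to 3, without overlap. Slc1a2, the glutamate transporter GLT-1, was 917-fold higher, Glul, glutamine synthetase, 16.9-fold higher, and Apoe, the brain's lipid carrier, 116-fold higher with 1810.5, 4296 and 281 CPM in neurospheres 1 to 3. Gfap, the filament of mature astrocytes, had 22.9, 94.8 and 0 CPM in neurospheres 1 to 3, against no counts in any MEF line, and with counts in only 2 lines it did not pass the filter; Aqp4, the water channel of astrocyte endfeet, had no counts in either group. Among oligodendrocyte lineage genes, 8 of 11 tested were higher and 2 lower. Olig1 had 1513 ± 385 CPM in neurospheres and 0.239 ± 0.414 CPM in MEFs. Pdgfra, the receptor of oligodendrocyte precursors and also of fibroblasts, was 7.28-fold lower, and Mbp, a myelin protein, had no counts in neurospheres and was at least 11.2-fold lower. Mog and Mag, of mature myelin, had no counts in any line.

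In the neuron list 7 of 13 tested genes were higher and 2 lower, with a median log2 difference of 1.25. The median was 3.44, 3.58 and 3.63 with MEF 1, 2 or 3 left out and 2.5 without neurosphere 1, and 1 gene was lower without MEF 1, MEF 3 or neurosphere 3. Gpm6a, a membrane glycoprotein of growing neurites, had 1521 ± 433 CPM in neurospheres and 0.923 ± 1.11 CPM in MEFs and Map2, a dendrite microtubule protein also present in progenitors, 1369 ± 139 CPM in neurospheres and 55.3 ± 78.2 CPM in MEFs; both were higher. Elavl3, an RNA-binding protein of young neurons, was at least 44.00-fold higher. Tubb3, the neuronal β-tubulin, had 26.6 ± 15.1 CPM in neurospheres and 57.04 ± 40.99 CPM in MEFs and was not called. Of 28 genes listed, 15 did not pass the filter on low counts, among them Dcx, of migrating neuroblasts, with 22.6, 8.62 and 2.53 CPM in neurospheres 1 to 3, against no counts in any MEF line, and Neurod2, Neurod6 and Slc17a7, of cortical excitatory neurons, with no counts in either. Of 19 GABA and interneuron lineage genes, 16 did not pass the filter on low counts. Only 3 were tested, with 2 higher and 1 lower, too few to describe the lineage. Gad1, which makes GABA, was at least 208-fold higher.

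Genes that place cells along the brain separated the neurosphere lines from each other. Otx2, of forebrain and midbrain, had 62.99, 0 and 21.3 CPM in neurospheres 1 to 3, against 0, 0.359 and 0 CPM in MEFs 1 to 3, and Six3, of the anterior forebrain, had 66.9, 1.44 and 9.38 CPM in neurospheres 1 to 3, against 0.397, 0 and 0 CPM in MEFs 1 to 3; neither passed the filter on low counts. Neurosphere 2 thus had no counts of Otx2, which neurospheres 1 and 3 held. Zic1, a dorsal neural factor, was 6.57-fold higher, and Nr2f1, an arealisation factor of cortex, 10.9-fold higher in all lines together, while En1, of midbrain and hindbrain and of limb ectoderm, was 19.3-fold lower. Of brain region transcription factors, 11 of 21 tested were higher. This count was 6 of 21 without neurosphere 1, 7 of 21 without neurosphere 3 and 7 of 25 without MEF 1.

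Hox genes also set neurosphere 2 apart. Hoxa5, of the neck and upper trunk level, had 0.389, 452 and 0 CPM in neurospheres 1 to 3, against 27.8, 12.2 and 20.1 CPM in MEFs 1 to 3, and Hoxb8 had 0, 140.2 and 0 CPM in neurospheres 1 to 3, against 26.2, 5.02 and 22.5 CPM in MEFs 1 to 3. Neither was called over all lines; without neurosphere 2 both were lower, Hoxa5 with a log2 difference of -6.43 and Hoxb8 of -8.64. Summed over 39 Hox genes, neurosphere 2 held 940.5 CPM and the lowest neurosphere line 1.08 CPM, against 549 to 766 CPM in MEFs. Posterior genes were at or near zero in neurospheres: Hoxd13, which patterns digits, had no counts in any neurosphere line, against 32.5, 249 and 19.8 CPM in MEFs 1 to 3, and Hoxa9, Hoxa11 and Hoxd11 had no counts there and were at least 80.9-fold, at least 67.5-fold and at least 62.5-fold lower. In all, 8 of 19 tested Hox genes were lower and 0 higher. Without neurosphere 2, 22 of 25 tested were lower, and with both neurosphere 2 and MEF 2 left out, 24 of 24. The Hox partners Meis1 and Meis2 were not called.

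**Figure D4:**
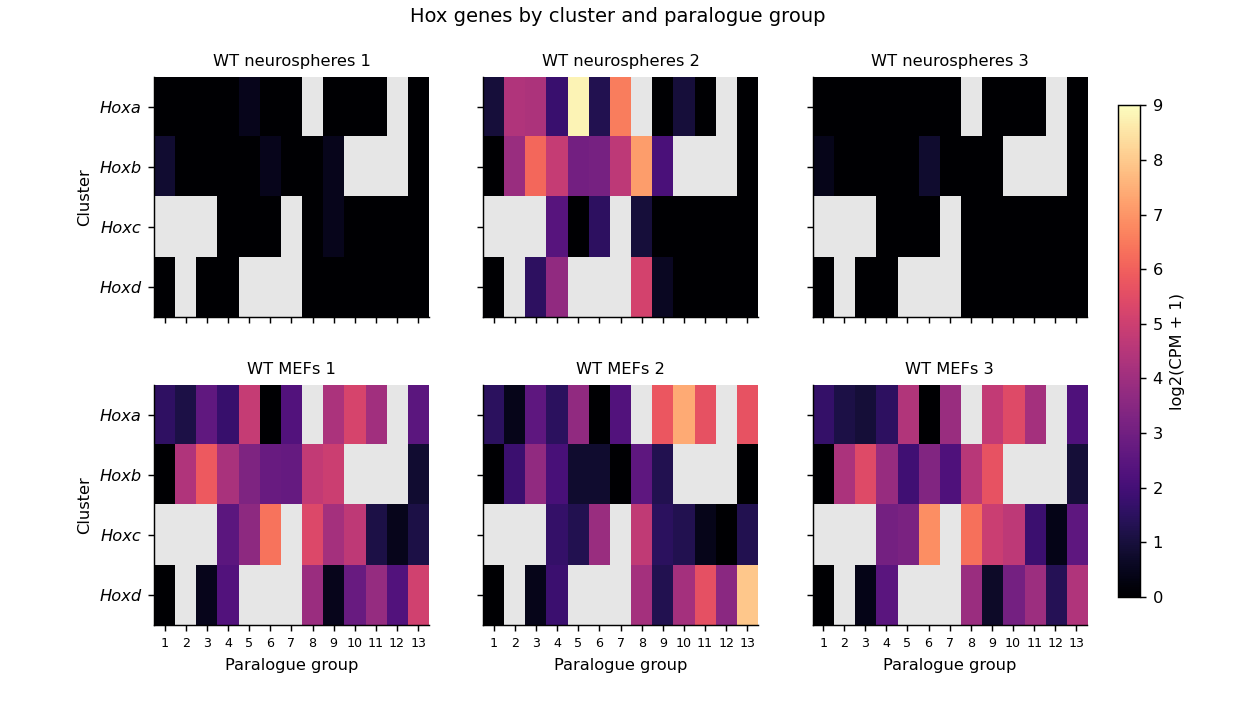
Level of each Hox gene as log2(CPM + 1), by cluster (a to d) and paralogue number (1 to 13, head to tail), in neurospheres 1 to 3 and MEFs 1 to 3; grey squares are positions with no such gene. Neurosphere 2 shows genes of paralogues 2 to 8 and neurospheres 1 and 3 almost none, while MEFs show the posterior paralogues of clusters a, c and d.

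Transcription factors of limb and mesenchyme were mostly lower in neurospheres. In this list 1 of 29 tested genes was higher and 19 lower, with a median log2 difference of -4.45, or -4.19 with genes lacking counts in a group set at their bound, against -3.99 in the KO lines. Prrx1, a homeobox factor of limb bud mesenchyme, had 90.6, 53.6 and 51.3 CPM in neurospheres 1 to 3, against 1005, 695 and 959 CPM in MEFs 1 to 3, with no overlap (log2 difference -3.76, SE 0.32, edgeR adjusted p = 0.000187). Twist2, which holds mesenchymal progenitors undifferentiated, and Snai1, which represses E-cadherin, had no counts in neurospheres and were at least 262-fold and at least 205-fold lower. Runx2, the master regulator of bone, was 23.6-fold lower, and Tbx15, of limb and skin mesenchyme, 38.7-fold lower. Tbx4, which marks hindlimb, had no counts in any neurosphere line, against 6.74, 82.8 and 3.39 CPM in MEFs 1 to 3, so MEF 2 held most of its counts; it was not tested. Zeb1, a repressor best known from epithelial to mesenchymal transition, went the other way and was 6.05-fold higher, while its paralogue Zeb2 had 99.7 ± 20.6 CPM in neurospheres and 76.96 ± 9.65 CPM in MEFs and was not called.

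Fibroblast markers and structural matrix were lower in neurospheres. All 18 fibroblast and mesenchyme markers were tested and all 18 were lower, with a median log2 difference of -7.08 against -7.95 in the KO lines. Vim, the filament vimentin, which neural progenitors also make, was the least changed, 3.31-fold lower. Fn1, fibronectin, had 18.3, 35.4 and 37.5 CPM in neurospheres 1 to 3, against 3622, 3683 and 2588 CPM in MEFs 1 to 3, and was 108-fold lower. Lox, which cross-links collagen, had 0.778, 0 and 0 CPM in neurospheres 1 to 3, against 2348, 3590.4 and 1625 CPM in MEFs 1 to 3. Among collagen chains, 2 of 22 tested genes were higher and 18 lower, with a median log2 difference of -6.91, or -5.35 with genes lacking counts in a group set at their bound. Fibril chains Col1a1 and Col3a1 were 1650.3-fold and 432-fold lower, the fibril nucleating chains Col5a1 and Col5a2 176-fold and 89.8-fold lower, and the basement membrane chains Col4a1 and Col4a2 11.2-fold and 18.4-fold lower. Collagen chains summed to 224 to 328 CPM in neurospheres and 18744 to 21375 CPM in MEFs. The 2 exceptions were Col9a3, a minor cartilage chain, with 39.5 ± 41.8 CPM in neurospheres and 0.384 ± 0.397 CPM in MEFs, and Col28a1, a chain of peripheral nerve, which was 42.95-fold higher.

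Genes that process collagen were lower as well. Of collagen processing genes, 22 of 25 tested were lower and 1 higher. Serpinh1, the collagen chaperone HSP47, had 83.99, 65.6 and 105 CPM in neurospheres 1 to 3, against 917, 654 and 1077 CPM in MEFs 1 to 3, and P4ha2, a prolyl hydroxylase, had 0.389 ± 0.673 CPM in neurospheres and 57.6 ± 4.53 CPM in MEFs. Fkbp10, a collagen chaperone, was at least 199-fold lower. Plod1, a lysyl hydroxylase, was the exception, 4.04-fold higher. In the elastic fibre and matricellular list, 22 of 27 were lower and 1 higher. Fbn1, the fibrillin of elastic fibres, was 38.7-fold lower and Fbln5, which assembles them, 910.0-fold lower; Spon1, a floor plate matrix protein, was 700.1-fold higher. Of small leucine-rich proteoglycans, 7 of 8 were lower, with Bgn, biglycan, at 0.907 ± 1.57 CPM in neurospheres and 694 ± 14.8 CPM in MEFs. Ogn, osteoglycin, had 0, 0 and 0.361 CPM in neurospheres 1 to 3, against 90.5, 1299 and 75.3 CPM in MEFs 1 to 3, so that MEF 2 held most of it. Mmp14, a membrane collagenase, was 66.3-fold lower and Timp1 97.6-fold lower, while Timp4, an inhibitor made in brain and heart, was 251-fold higher.

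Of brain matrix genes, 5 of 8 tested were higher and 2 lower. Ncan, the proteoglycan neurocan, had 843, 618 and 1194 CPM in neurospheres 1 to 3, against 0, 0.359 and 0.309 CPM in MEFs 1 to 3, and Cspg5, neuroglycan C, 1133 ± 576 CPM in neurospheres and 0.787 ± 0.727 CPM in MEFs. Both were near zero in every MEF line. Tnr, the neural tenascin, had 47.8 ± 32.3 CPM in neurospheres and 0.239 ± 0.414 CPM in MEFs, while Has2, which makes hyaluronan, was 134-fold lower and Vcan, versican, had 250.3 ± 15.8 CPM in neurospheres and 379.9 ± 267 CPM in MEFs and was not called.

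Contractile genes were lower almost without exception: 23 of 24 tested, 0 higher, with a median log2 difference of -4.56 against -3.98 in the KO lines. Summed, they took 1680.5 to 1698 CPM in neurospheres and 16124 to 22203 CPM in MEFs. Myl9, the regulatory light chain of non-muscle and smooth muscle myosin, had 0.778, 0.957 and 0.722 CPM in neurospheres 1 to 3, against 178, 122 and 134 CPM in MEFs 1 to 3, and was 169-fold lower. Vcl, vinculin, which ties actin to focal adhesions, had 40.8, 40.2 and 27.1 CPM in neurospheres 1 to 3, against 703, 769 and 468 CPM in MEFs 1 to 3, and was 17.9-fold lower. Neither gene's groups overlapped. Cnn1, calponin, and Lmod1, leiomodin, had no counts in neurospheres and were at least 300.0-fold and at least 199-fold lower; Tagln, transgelin, had 0.361 ± 0.625 CPM in neurospheres and 761 ± 229 CPM in MEFs. Tropomyosins Tpm1 and Tpm4 were 42.3-fold and 13.2-fold lower, and Cald1, caldesmon, 16.8-fold. Pdlim5, a scaffold of actin bundles, had 275 ± 12.96 CPM in neurospheres and 319.9 ± 113 CPM in MEFs and was not called.

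Many smooth muscle genes are known targets of serum response factor (SRF), which reads the CArG box, a run of A and T between CC and GG. The promoters of Myl9 and Vcl are shown because these genes were lower and hold this motif. They come from RefSeq on GRCm38.p6 and run from 250 bases before to 50 bases after the gene start. Myl9 is at chr2:156775214-156775513 on the plus strand, with the motif starting at -161, and Vcl at chr14:20929148-20929447 on the plus strand, with the motif at -227; capitals mark the motif.
Myl9: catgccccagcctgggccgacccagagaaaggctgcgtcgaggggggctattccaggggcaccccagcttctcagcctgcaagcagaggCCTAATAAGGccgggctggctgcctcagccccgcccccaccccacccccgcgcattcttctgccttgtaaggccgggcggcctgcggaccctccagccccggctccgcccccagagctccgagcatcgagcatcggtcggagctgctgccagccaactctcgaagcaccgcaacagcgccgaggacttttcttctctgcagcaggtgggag
Vcl: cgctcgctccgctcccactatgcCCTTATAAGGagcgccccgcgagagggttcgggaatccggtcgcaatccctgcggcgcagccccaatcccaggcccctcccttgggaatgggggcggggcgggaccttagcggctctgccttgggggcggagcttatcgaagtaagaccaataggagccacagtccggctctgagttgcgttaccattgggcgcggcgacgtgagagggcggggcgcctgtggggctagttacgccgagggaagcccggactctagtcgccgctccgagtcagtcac
Searched on both strands, the CArG box was in 6 of the 23 contractile genes with a promoter (Cnn2, Fhl1, Fhl2, Myl6, Myl9 and Vcl). All 6 were called lower, but so were 21 of the 23, so the calls do not set genes with the motif apart. Of all mouse genes with a promoter of that length, 488 of 27025 held the motif, 1.81%. A match describes the letters in this window and does not show binding.

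Targets of the mechanosensitive coactivator YAP were lower in 14 of 19 tested, and 1 was higher, with a median log2 difference of -2.14. Ankrd1, a nuclear ankyrin repeat protein, had no counts in any neurosphere line, against 521, 35.5 and 183 CPM in MEFs 1 to 3, and was at least 611-fold lower. Ccn1, a matricellular protein, had 0.778, 5.74 and 3.25 CPM in neurospheres 1 to 3, against 614, 734 and 289 CPM in MEFs 1 to 3, and was 170.0-fold lower. Axl, a receptor tyrosine kinase, was 8.60-fold lower, and Amotl2, a YAP inhibitor that is itself a target, 7.57-fold lower. Igfbp3, an IGF carrier, was the gene that was higher, with 162, 39.2 and 1088 CPM in neurospheres 1 to 3, against 35.3, 45.2 and 50.6 CPM in MEFs 1 to 3, and most of its counts were in neurosphere 3. Its call was lost when any one MEF line, neurosphere 1 or neurosphere 3 was left out. YAP acts through TEAD factors, which read the letters CATTCC. The promoters of Ankrd1, at chr19:36119795-36120094 on the minus strand, and Axl, at chr7:25788684-25788983 on the minus strand, are shown as examples of members with that motif that were lower; capitals mark its reverse complement GGAATG, at -210 and -123 in Ankrd1 and at -233 in Axl.
Ankrd1: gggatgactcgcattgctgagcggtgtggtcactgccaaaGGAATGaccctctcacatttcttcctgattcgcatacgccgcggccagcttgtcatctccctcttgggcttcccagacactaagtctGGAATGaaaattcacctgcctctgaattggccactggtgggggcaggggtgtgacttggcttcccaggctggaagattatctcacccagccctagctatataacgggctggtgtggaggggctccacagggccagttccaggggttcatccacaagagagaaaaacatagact
Axl: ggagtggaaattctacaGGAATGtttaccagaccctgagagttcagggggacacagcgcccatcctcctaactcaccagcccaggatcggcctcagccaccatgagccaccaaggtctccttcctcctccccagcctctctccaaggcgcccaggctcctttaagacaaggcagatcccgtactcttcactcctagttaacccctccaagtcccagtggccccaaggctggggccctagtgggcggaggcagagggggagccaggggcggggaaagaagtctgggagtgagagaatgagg
On either strand CATTCC was in 8 of the 17 YAP targets with a promoter (Ajuba, Amotl2, Ankrd1, Axl, Ccn1, Crim1, Lats2 and Ptpn14) and in 7 of the 10 called lower. Of all mouse genes with a promoter, 4481 of 27025 held it, 16.6%. The list was chosen as targets of YAP, so its share is no test against all genes. Whether the motif goes with being lower was not tested, and a match does not show binding.

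Genes of caveolae, the membrane pits that buffer stretch, were lower too: 5 of 7 were lower and 0 higher. Cav1, caveolin 1, had 0.778, 0 and 0 CPM in neurospheres 1 to 3, against 751, 2015 and 477 CPM in MEFs 1 to 3, and Cavin1 and Cavin2, which coat the pit, were 19.3-fold and 306-fold lower. Of annexins and S100 calcium-binding proteins, 13 of 15 were lower. S100a6 had 3.63 ± 6.29 CPM in neurospheres and 3348 ± 494 CPM in MEFs, Anxa1 5.95 ± 4.10 CPM in neurospheres and 1164 ± 375 CPM in MEFs and Anxa2 12.4 ± 9.40 CPM in neurospheres and 514 ± 71.99 CPM in MEFs. S100b, the astrocyte member, was the exception, 187-fold higher. In the TGF-β and activin list, 9 of 18 were lower and 1 higher. Tgfbr2, the type II receptor, was 8.37-fold lower, Tgfb3, a ligand, 61.4-fold lower, and Inhba, the activin A subunit, 975-fold lower. The receptor Tgfbr1 and the ligand Tgfb2 were not called.

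Cytoskeletal genes differed by isoform. Lmna, the lamin that scales with tissue stiffness, had 5.05, 8.62 and 11.9 CPM in neurospheres 1 to 3, against 218, 255 and 206 CPM in MEFs 1 to 3, and was 26.3-fold lower, whereas Lmnb1 had 145 ± 59.1 CPM in neurospheres and 99.98 ± 8.24 CPM in MEFs and was not called. Tubb2b, the β-tubulin of migrating neurons, was 6.91-fold higher, and Tuba1c and Tubb6 were 255-fold and 18.9-fold lower. Tuba1a, the main α-tubulin of developing brain, had 1213 ± 244 CPM in neurospheres and 1090.2 ± 290.4 CPM in MEFs and was not called. Mapt, the axonal protein tau, was 349.8-fold higher, and Marcks, which links membrane to actin, 3.05-fold higher.

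Adhesion genes differed by family. Of neural immunoglobulin adhesion molecules, 13 of 16 were higher and 0 lower, with a median log2 difference of 5.88. Ntm, neurotrimin, had 738, 385 and 450.4 CPM in neurospheres 1 to 3, against 5.95, 4.66 and 2.47 CPM in MEFs 1 to 3, without overlap. Of the genes that act at cell and synapse contacts, Cadm1 had 163 ± 29.9 CPM in neurospheres and 9.70 ± 3.66 CPM in MEFs and Nrcam had 127 ± 51.6 CPM in neurospheres and 1.94 ± 0.879 CPM in MEFs. Ncam1, often used as a neural marker, had 505, 435 and 224 CPM in neurospheres 1 to 3, against 1482, 134 and 1441 CPM in MEFs 1 to 3, and was not called; MEF 2 stood below the other MEF lines. Of cadherins, 6 of 10 were higher and 2 lower: Cdh4, R-cadherin of retina and brain, had 99.4 ± 17.6 CPM in neurospheres and 0.338 ± 0.313 CPM in MEFs, Cdh11, the mesenchymal cadherin, was 48.95-fold lower, and Cdh2, N-cadherin, had 227 ± 65.5 CPM in neurospheres and 131 ± 41.9 CPM in MEFs and was not called. Itgb8, an integrin subunit of glia that activates TGF-β, was 36.98-fold higher, while Itgb1, the common β subunit, was 2.93-fold lower, Itgb5 10.02-fold lower and the collagen receptor Itga11 at least 92.4-fold lower. Of integrins, 4 of 12 were lower, or 8 of 17 without neurosphere 3.

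Axon guidance genes went both ways. Of semaphorins, plexins and neuropilins, 9 of 21 were higher and 4 lower. Sema6d, a membrane semaphorin, was 42.9-fold higher and Plxnb1, a plexin, 11.2-fold higher, while the receptors Nrp1 and Nrp2 were 6.99-fold and 4.80-fold lower. The netrin receptor Dcc was 33.9-fold higher and its ligand Ntn1 16.1-fold higher, while Slit2, a repellent, was 39.2-fold lower and the receptors Robo1 and Robo2 were 3.39-fold and 8.86-fold higher. Unc5b, a repulsive netrin receptor, was 68.4-fold lower. Among Eph receptors and ephrins, 2 of 14 were higher and 6 lower: Epha5 was 67.04-fold higher, and Epha3 and Efna5 were 21.04-fold and 15.5-fold lower.

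Receptors for transmitters were mostly higher. Of ionotropic glutamate receptor subunits, 7 of 8 tested were higher and 0 lower. Gria2 had 318, 94.3 and 451 CPM in neurospheres 1 to 3, against no counts in any MEF line, and Gria4 had 163 ± 40.2 CPM in neurospheres and 0.617 ± 1.07 CPM in MEFs; Gria3 had 114 ± 62.99 CPM in neurospheres and 69.7 ± 16.7 CPM in MEFs and was not called. Grik2, a kainate subunit, was at least 44.2-fold higher. The obligatory NMDA subunit Grin1 had 11 counts in neurospheres and 1 in MEFs and was not tested. Of GABA-A receptor subunits, 3 of 5 were higher; among them Gabra2 was 118-fold higher and Gabrg1 had 69.2 ± 10.8 CPM in neurospheres and 0.12 ± 0.207 CPM in MEFs.

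In the Notch pathway, 8 of 19 tested genes were higher and 3 lower, with a median log2 difference of 0.98. The receptors Notch1 and Notch3 were 5.02-fold and 6.02-fold higher, and Notch1 had 301, 233 and 181 CPM in neurospheres 1 to 3, against 47.6, 47.3 and 47.5 CPM in MEFs 1 to 3. The ligand Dll1 was 122-fold higher, and Lfng, a glycosyltransferase that tunes ligand choice, 11.9-fold higher. Targets Hey1 and Nrarp were 7.14-fold and 11.3-fold higher. Hes1, a target used by many cell types, had 145 ± 30.8 CPM in neurospheres and 199 ± 53.6 CPM in MEFs and was not called, and neither was the ligand Jag1. Without MEF 2, 5 of 20 were lower and the median was 1.79; without MEF 1, MEF 3, neurosphere 2 or neurosphere 3, 1 was lower. Dlk1, a non-canonical ligand that is imprinted, was 35.8-fold lower.

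In the Wnt pathway, 8 of 32 were higher and 9 lower, 25% and 28.1%, near the 20.8% each way over all genes. The genes given here are single members of that list. The ligand Wnt7b had 37.1 ± 4.20 CPM in neurospheres and 0.359 ± 0.621 CPM in MEFs, and Wnt7a was at least 19.01-fold higher; the receptor Fzd3 was 22.4-fold higher. Axin2, a feedback target used as a readout of the pathway, had 59.1, 55.04 and 44.8 CPM in neurospheres 1 to 3, against 2.78, 8.25 and 3.09 CPM in MEFs 1 to 3, without overlap, and was 11.2-fold higher. The receptor Fzd2 was 5.43-fold lower, and of the secreted antagonists named here Sfrp1 was 14.3-fold lower and Dkk2 had 0.16 ± 0.276 CPM in neurospheres and 138 ± 74.5 CPM in MEFs. Sfrp2, another antagonist, had 8.17, 1.91 and 7.22 CPM in neurospheres 1 to 3, against 4.76, 1829.6 and 13.3 CPM in MEFs 1 to 3, so that MEF 2 held nearly all of it and the other lines overlapped. In the Hedgehog pathway, 1 of 10 was higher and 1 lower, or 2 of 11 higher without MEF 2. Over all lines that is 10% each way, below the 20.8% over all genes. Ptch1, the receptor and a target gene, had 218, 113 and 114 CPM in neurospheres 1 to 3, against 15.1, 36.6 and 7.72 CPM in MEFs 1 to 3, and was 7.52-fold higher; Gli1, a second target, had only 2 counts in neurospheres and 4 in MEFs.

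Of BMP pathway genes, 5 of 24 were higher and 10 lower, or 6 of 25 lower without neurosphere 1. The antagonist Grem1 had 0.75 ± 0.651 CPM in neurospheres and 209 ± 90.03 CPM in MEFs, and Fst, follistatin, was 214-fold lower. Bmp4, a ligand, had 0, 0.957 and 1.08 CPM in neurospheres 1 to 3, against 41.3, 551 and 32.4 CPM in MEFs 1 to 3. The inhibitory Smad7 was 20.3-fold lower, while the target Id2 was 5.42-fold higher and the receptor Bmpr1b 5.81-fold higher; Id1 was not called.

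Among growth factor receptors and their feedback genes, 8 of 30 were higher and 10 lower, 26.7% and 33.3%, beside 20.8% each way over all genes. Egfr, the EGF receptor, had 845, 471 and 358 CPM in neurospheres 1 to 3, against 92.04, 58.8 and 84.3 CPM in MEFs 1 to 3, and was 7.12-fold higher; Fgfr3 was 11.8-fold higher and Erbb4, the neuregulin receptor, at least 282-fold higher. Etv1 and Etv5, transcription factors induced by FGF signalling, were 55.2-fold and 13.4-fold higher, and Spry2, a feedback inhibitor, 2.79-fold. Pdgfrb, a mesenchymal PDGF receptor, had 0.648 ± 1.12 CPM in neurospheres and 129 ± 44.4 CPM in MEFs. The ligands Fgf7 and Fgf10 of mesenchyme were lower, Fgf7 with 0.241 ± 0.417 CPM in neurospheres and 113 ± 82.4 CPM in MEFs and Fgf10 at least 54.1-fold lower, and Fgf1, a ligand of neural tissue, was at least 191-fold higher. In the IGF axis, 8 of 17 were lower and 2 higher, with 1 of 18 higher without neurosphere 2 and 0 without MEF 1, MEF 3, neurosphere 1 or neurosphere 3. Igf2, the fetal growth factor, had 12.1, 0 and 0 CPM in neurospheres 1 to 3, against 669, 90.7 and 955 CPM in MEFs 1 to 3; Igf2bp1, a fetal RNA-binding protein, had 0.13 ± 0.225 CPM in neurospheres and 121 ± 25.6 CPM in MEFs, and Pappa, which frees IGF from its carriers, was at least 478-fold lower. Retinoid genes were lower in 6 of 11, with Crabp1, a retinoic acid carrier, at 1.69 ± 2.92 CPM in neurospheres and 304 ± 299 CPM in MEFs, and Rarg, a receptor, 19.7-fold lower; Aldh1a1, which makes retinoic acid, was 11.5-fold higher.

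Mitochondrial transcripts took a larger share of neurosphere RNA. The 13 mRNAs of the mitochondrial genome made up 14.5 ± 2.04% of counts in neurospheres and 5.84 ± 0.270% in MEFs (SD, n = 3 each; exact permutation test, two-sided, p = 0.1, the smallest that 3 against 3 can give). By line the share was 12.9, 13.8 and 16.8% in neurospheres 1 to 3 and 6.15, 5.74 and 5.63% in MEFs 1 to 3, without overlap. Of these mRNAs, 12 of 13 were called higher and 0 lower. mt-Nd2, a complex I subunit, was 4.05-fold higher and mt-Co1, the catalytic subunit of complex IV, 2.96-fold higher. Nuclear genes of the respiratory chain and ATP synthase were higher in 28 of 81 and lower in 0, with a median log2 difference of 0.60. The complex I subunit Ndufc2 had 603, 495 and 939 CPM in neurospheres 1 to 3, against 146, 169 and 159 CPM in MEFs 1 to 3, and was 4.30-fold higher; Cox4i1 and Cox6c, of complex IV, were 2.32-fold and 2.25-fold higher. Cox8b, a muscle form of a complex IV subunit, was at least 65.6-fold higher. The count of 28 was 12 without MEF 1, 14 without MEF 3 and 18 without neurosphere 3.

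Glycolysis genes were called about as often as all genes tested. Of 21 tested genes, 3 were higher and 5 lower, 14.3% and 23.8%, against 20.8% each way over all genes. Ldhb, the lactate dehydrogenase chain favoured in oxidative tissue, had 183, 173 and 202 CPM in neurospheres 1 to 3, against 8.73, 13.3 and 14.8 CPM in MEFs 1 to 3, and was 15.04-fold higher; Ldha, the other chain, was 2.52-fold lower. Pfkm was 6.91-fold higher and Pfkp 7.21-fold lower, which are the muscle and platelet forms of phosphofructokinase. Aldoc, the brain aldolase, was 119-fold higher, with 209, 1017 and 30.7 CPM in neurospheres 1 to 3. Hk2, a hexokinase, was 9.51-fold lower and the glucose transporter Slc2a1 5.42-fold lower, while Gapdh was not called. The 3 higher genes became 5 of 22 without neurosphere 1. The 5 lower genes became 2 without MEF 1, 2 without MEF 3, 3 of 22 without neurosphere 2 and 8 of 22 without MEF 2.

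Of fatty acid binding and lipid transport genes, 9 of 20 were higher and 2 lower. Abca1, which exports cholesterol, had 410.2, 374 and 254 CPM in neurospheres 1 to 3, against 13.9, 23.7 and 12.96 CPM in MEFs 1 to 3, and was 20.5-fold higher. Fabp5, a second fatty acid carrier, was 6.18-fold higher, Acsbg1, an acyl-CoA synthetase of brain, 131-fold higher, and Elovl2, which lengthens polyunsaturated fatty acids, at least 53.1-fold higher. Plin2, which coats lipid droplets, was 5.12-fold lower. Of cholesterol synthesis genes, 1 of 24 was higher and 2 lower, with 21 not called; without neurosphere 3, 6 of 25 were lower, without MEF 2, 4 of 25, without neurosphere 2, 1 of 25, and without MEF 1 or MEF 3, 0. Higher were 3 of 25 without neurosphere 1 and 2 of 24 without MEF 3. In the serine, glycine and folate list, 2 of 17 were higher and 6 lower. Gldc and Amt, of the glycine cleavage system, were at least 91.7-fold and 21.1-fold higher, while Mthfd2, the mitochondrial folate enzyme of growing cells, was 11.1-fold lower and Psat1, of serine synthesis, 3.04-fold lower. Gstm1, a glutathione transferase, was 19.1-fold higher and Mgst1 7.57-fold higher, while Gpx7, a peroxidase of the endoplasmic reticulum, was at least 64.2-fold lower.

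Genes of cell division were lower or not called. Of mitosis and G2/M genes, 27 of 41 were lower and 0 higher, with a median log2 difference of -1.81 against -1.90 in the KO lines. Anln, anillin of the cleavage furrow, had 10.9, 22.97 and 31.04 CPM in neurospheres 1 to 3, against 201, 318 and 201 CPM in MEFs 1 to 3, and was 11.1-fold lower. Aurka, a spindle kinase, was 7.29-fold lower, and Cdk1, the mitotic kinase, 6.07-fold lower. Mki67, the proliferation marker, had 54.4, 154 and 172 CPM in neurospheres 1 to 3, against 206, 467 and 253 CPM in MEFs 1 to 3, and was not called. Its groups did not overlap, and neurosphere 1 was the lowest. The sum of the list was 699.5 to 2458 CPM in neurospheres and 4327 to 7505 CPM in MEFs. Of DNA replication and S phase genes, 18 of 39 were lower and 0 higher; Rrm2, of nucleotide synthesis, was 7.37-fold lower, Mcm4, of the replicative helicase, 4.93-fold lower, and Ccne1, cyclin E1, 8.86-fold lower. Leaving out MEF 3 left 17 of 41 G2/M and 11 of 39 S phase genes lower, and leaving out neurosphere 2 left 17 of 41 G2/M genes.

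Of 13 CDK inhibitors and D cyclins tested, 3 were higher and 3 lower, 23.1% each way, near the 20.8% over all genes. Over all settings tried these counts were 1 to 4 higher and 3 to 5 lower. Cdkn1b, the inhibitor p27, was 2.90-fold higher, and Rb1, the retinoblastoma protein, had 95.3, 78.97 and 74.4 CPM in neurospheres 1 to 3, against 19.4, 23.7 and 13.6 CPM in MEFs 1 to 3, and was 4.39-fold higher. Cdkn2b, the inhibitor p15, was 15.1-fold lower, and Cdkn1c, the imprinted inhibitor p57, 14.5-fold lower. Cdkn2a, whose products block culture growth, and Cdkn1a, the inhibitor p21, were not called. Ccnd2, a D cyclin, had 298, 539.9 and 1816 CPM in neurospheres 1 to 3, against 2845, 2664 and 2595 CPM in MEFs 1 to 3, and was not called although its groups did not overlap. Of p53 targets, 9 of 21 were lower and 2 higher, with Ccng1 5.46-fold lower and Sesn1 4.74-fold higher.

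Ribosomal protein genes took 3.18 ± 0.555% of counts in neurospheres and 5.85 ± 1.27% in MEFs (SD, n = 3 each; exact permutation test, two-sided, p = 0.1, the smallest possible). Of 81 tested, 54 were lower and 0 higher, with a median log2 difference of -0.95 against -0.93 in the KO lines. Rps2 had 163, 144 and 179 CPM in neurospheres 1 to 3, against 678, 437 and 823 CPM in MEFs 1 to 3, and was 3.99-fold lower. The count depended on the lines used: 21 of 81 without MEF 1, 21 of 81 without MEF 3, 25 of 82 without neurosphere 1, 24 of 82 without neurosphere 3, and 27 of 81 in a fit with the replicate number as a block. MEF 2, at 4.46%, had the lowest share among MEFs. Ribosomal protein genes have many near-identical pseudogenes, so reads could be split between copies.

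Of genes of the unfolded protein and amino acid stress responses, 18 of 25 tested were lower and 1 higher, with a median log2 difference of -1.77. Hspa5, the chaperone BiP, had 182, 317 and 244 CPM in neurospheres 1 to 3, against 1618, 1326 and 1933 CPM in MEFs 1 to 3, and was 6.56-fold lower. Hsp90b1 and Calr, further chaperones, were 4.52-fold and 5.31-fold lower, and Xbp1, a transcription factor of the response, 6.88-fold. Asns and Trib3, targets of the amino acid stress factor ATF4, were 7.62-fold and 27.7-fold lower. Of immediate early genes, 10 of 22 were lower and 3 higher. Fos, an AP-1 subunit, was 6.28-fold higher, whereas Fosl2 was 8.26-fold lower and Fosl1 had 0.361 ± 0.625 CPM in neurospheres and 20.7 ± 13.2 CPM in MEFs.

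**Figure D5:**
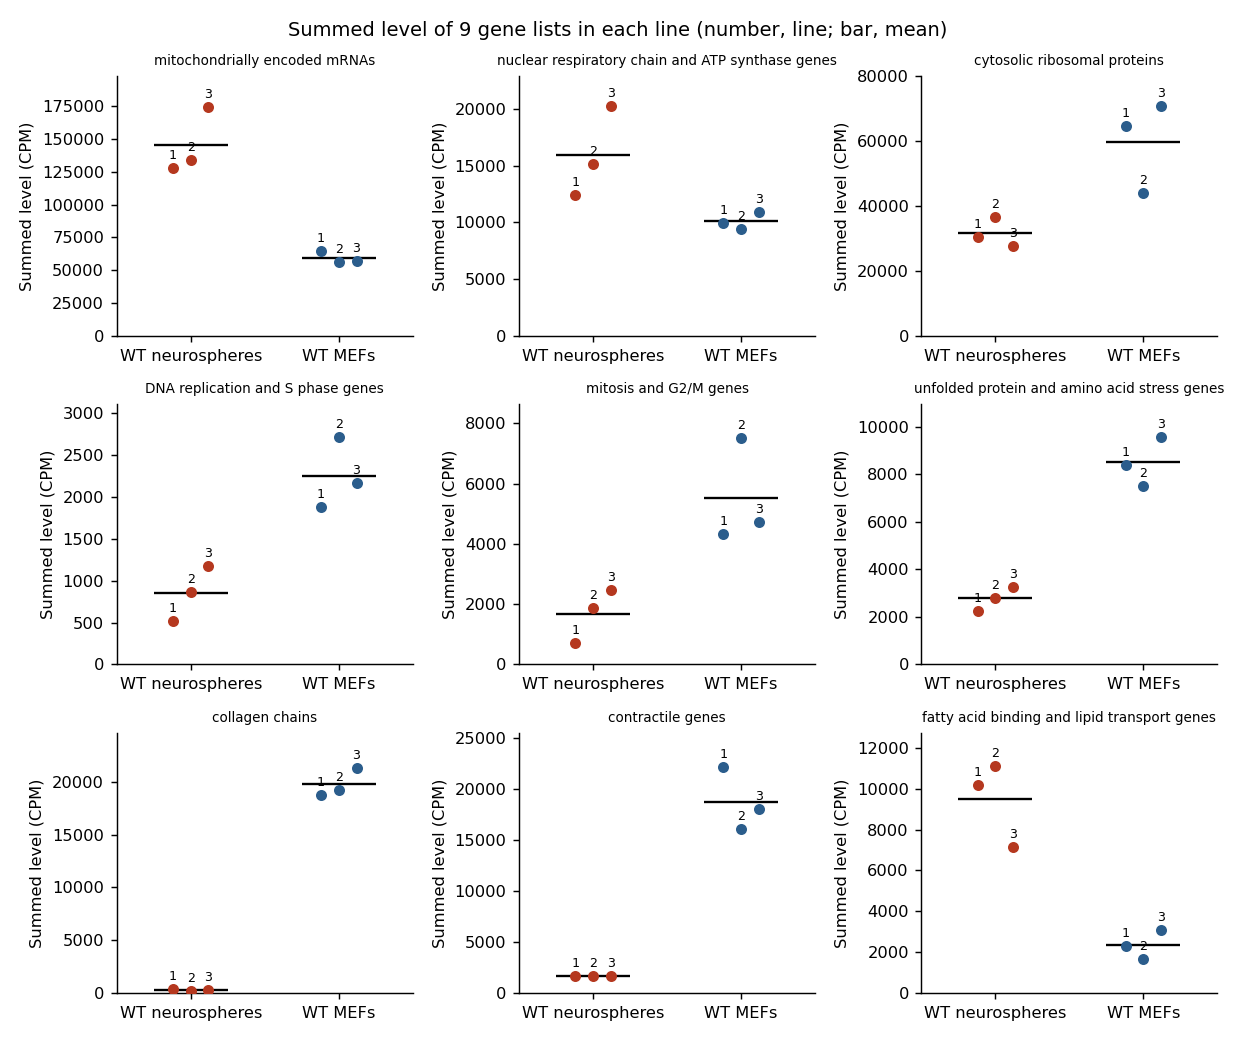
Summed level in CPM for 9 gene lists, with neurospheres 1 to 3 on the left of each panel and MEFs 1 to 3 on the right; points are lines and bars the group mean. Mitochondrial mRNAs and lipid genes lie higher in every neurosphere line, and collagen, contractile, unfolded protein and G2/M genes lower.

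Single chromatin genes differed in both directions. H3f3a had 2454, 2133 and 1999.9 CPM in neurospheres 1 to 3, against 847, 1422 and 865 CPM in MEFs 1 to 3, and was 2.10-fold higher (log2 difference 1.07, SE 0.27, edgeR adjusted p = 0.0148), while H3f3b, which codes for the same protein, had 1965 ± 378 CPM in neurospheres and 1527 ± 313 CPM in MEFs and was not called. Of the H3.3 chaperones, Hira and Daxx were not called, Atrx was 1.55-fold higher, and Asf1a was 2.16-fold higher, whereas Asf1b, its cycling-cell paralogue, was 9.62-fold lower. The DNA methylation list had 6 of 17 higher and 3 lower. Tet1, Tet2 and Tet3, which oxidise methylcytosine, were 7.80-fold, 5.19-fold and 3.51-fold higher, and Dnmt3a, a de novo methyltransferase, had 196, 209 and 183 CPM in neurospheres 1 to 3, against 23.01, 49.8 and 36.1 CPM in MEFs 1 to 3, and was 5.37-fold higher. Without neurosphere 3, 5 of 17 were lower. The maintenance enzyme Dnmt1 had 39.4 ± 16.4 CPM in neurospheres and 76.2 ± 8.57 CPM in MEFs and was not called. Of Polycomb genes, 5 of 25 were higher and 3 lower, 20% and 12%, which is no more than the 20.8% each way over all genes. Jarid2, a PRC2 cofactor, was 7.22-fold higher and Eed, a PRC2 core subunit, 2.61-fold lower, while Ezh2 and Suz12 were not called. The 5 Polycomb genes called higher became 2 without MEF 1, MEF 3 or neurosphere 2, 3 without neurosphere 1 or 3, and 9 without MEF 2. Dpf3, a BAF complex subunit, had 19.4 ± 17.7 CPM in neurospheres and 0.103 ± 0.178 CPM in MEFs, and Smarcd1 was 4.24-fold higher. Hmga2, an architectural protein of young stem cells and of mesenchyme, had 10.9, 116 and 26.7 CPM in neurospheres 1 to 3, against 1749, 525 and 1258 CPM in MEFs 1 to 3, and was 23.2-fold lower. Hist1h1c, a linker histone, was 3.64-fold higher; since the assay reads polyadenylated RNA, most replication histones are not seen.

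Splicing regulators differed in both directions. Of 28 tested RNA-binding proteins, 9 were higher and 11 lower. Qk, which directs glial splicing, had 4196, 2542 and 2484 CPM in neurospheres 1 to 3, against 603, 498 and 507 CPM in MEFs 1 to 3, and was 5.73-fold higher. Ptbp2, the neural form of the splicing repressor PTB, was 4.59-fold higher, and Ptbp1, the general form, 3.31-fold lower. Nova1, a neural splicing factor, was 8.62-fold higher and Msi2, a stem cell RNA-binding protein, 7.21-fold higher, while Mbnl1 and Mbnl2, muscleblind proteins, were 2.28-fold and 2.96-fold lower. The 11 lower genes became 6 without MEF 1 and 6 without MEF 3. Among imprinted genes 9 of 32 were higher and 8 lower, 28.1% and 25%, near the 20.8% each way over all genes. Nnat, neuronatin, was 83.4-fold higher and Nap1l5 49.02-fold higher, while Grb10, a growth inhibitor, was 44.6-fold lower and Plagl1 18.6-fold lower. Peg3 and Mest, which are also paternally expressed, were not called.

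Markers of other cell types were checked on both sides. All 7 macrophage genes tested were lower, or 11 of 11 without MEF 1, 11 of 12 without neurosphere 1 or 3 and 12 of 12 without neurosphere 2, with 1.39 ± 0.458 CPM in neurospheres and 58.6 ± 34.8 CPM in MEFs for Lyz2, lysozyme, and no counts in neurospheres and 18.1 ± 2.99 CPM in MEFs for Cx3cr1, a microglia and macrophage receptor. The 17 listed macrophage genes summed to 2.53 to 3.83 CPM in neurospheres and 119 to 289 CPM in MEFs, and 11 of them had no counts in neurospheres. Chemokines and inflammatory genes were lower in 11 of 14 and higher in 1. Ccl2, which draws monocytes, was at least 264-fold lower, and Cxcl5, which draws neutrophils, had no counts in any neurosphere line, against 89.7, 444 and 45.99 CPM in MEFs 1 to 3. Il33, an alarmin made by glia, was 51.6-fold higher. Of interferon-stimulated genes, 8 of 15 were lower; Bst2, tetherin, had 0.509 ± 0.597 CPM in neurospheres and 53.97 ± 58.2 CPM in MEFs. Of endothelial genes, 1 of 4 tested was higher and 2 lower: Pecam1, an endothelial adhesion protein, had 9.26 ± 3.55 CPM in neurospheres and 1.06 ± 0.632 CPM in MEFs and was higher, and the VEGF receptors Flt1 and Kdr were 47.6-fold and 5.64-fold lower, while Cdh5 and Cldn5, which define endothelium, had no counts in neurospheres and 7 and 0 counts in MEFs. The part of macrophages in the chemokine and interferon counts was not tested. Of cartilage and bone genes, 4 of 7 tested were lower and 3 higher; Spp1, osteopontin of bone cells and macrophages, was 219-fold lower, and the 3 higher were Sox5, Sox6 and Sox9, given above. Of meningeal and choroid plexus genes, 1 of 4 tested was higher and 1 lower. Ptgds, of meninges and glia, had 169 ± 72.97 CPM in neurospheres and 0.132 ± 0.229 CPM in MEFs, and the lower gene was Ogn, given above, of which MEF 2 held most.

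Because the reads mark transcript ends, the leading transcript of a gene could be compared as well. Of 4399 genes with at least 50 reads in each of the 6 libraries, 53 had leading transcripts, each with at least 50% of the gene's reads in its group, whose ends lay more than 500 bases apart; in 39 of these the shares did not overlap. Ptprz1 ended at the short transcript Ptprz1-206 (12 exons, 1612 codons) in 73.0 ± 6.74% of its reads in neurospheres and 7.92 ± 0.534% in MEFs. The long Ptprz1-201 (30 exons, 2312 codons), whose end lies 48238 bases away, took 20.1 ± 8.59% in neurospheres and 67.1 ± 22.8% in MEFs. By line, Ptprz1-206 took 79.1, 74.1 and 65.8% in neurospheres 1 to 3, above every MEF line. Kif1b, an axonal transport motor, favoured the long Kif1b-203 (1816 codons), with 79.8 ± 1.71% in neurospheres and 43.2 ± 9.60% in MEFs. Qk used Qk-201 (325 codons) for 51.3% of reads in neurospheres and 11.4% in MEFs. Among genes outside that set, Rtn4, the neurite inhibitor Nogo, gave the long Rtn4-203 (1046 codons) 21.5 ± 3.35% in neurospheres and 2.66 ± 2.48% in MEFs, and Vcan gave Vcan-202 (1615 codons) 27.97 ± 15.4% in neurospheres and 0% in MEFs. In Tpm1, the transcript Tpm1-205 took 43.9 ± 7.79% in neurospheres and 2.54 ± 0.244% in MEFs. Tpm1-216 was given 0% in neurospheres and 52.3 ± 4.85% in MEFs, but other Tpm1 transcripts end at the same base. Reads from 3′ ends cannot separate Tpm1-216 from those, so its share is not read as that of a single transcript. Nor does its 0% mean that this end was unused in neurospheres, where transcripts sharing it had reads. Each of these shares, except that of Qk-201, which was not tested, gave an exact permutation p of 0.1 (two-sided), the smallest possible with 3 against 3. Shares are estimates by Salmon from short 3′ reads, and transcripts with ends close together cannot be told apart by them.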

How the data were processed

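RNA was extracted with the NucleoSpin RNA kit and made into QuantSeq 3′ FWD libraries, per the labels' protocols. Salmon 1.1.0 and edgeR are named in the submitters' processing notes; no genome build is named there. The deposited files hold, for each transcript, estimated counts (Salmon's NumReads) and TPM values computed by the authors. Here transcripts were joined to genes of the mouse annotation on GRCm38: of 116945 transcripts, 115638 matched by identifier, version and length, 385 by identifier alone, and 922, with 0.239 to 0.400% of reads, by none. Estimated counts were summed over 35519 genes and rounded to whole numbers; 88 genes share a symbol with another.

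WT libraries alone were fitted with edgeR 4.0.16 (TMM, filterByExpr, robust quasi-likelihood test, Benjamini-Hochberg over all tested genes) in R 4.3.3, with limma 3.58.1 on log2(TPM + 1) and DESeq2 1.42.0 as alternatives. The interaction used all 14 libraries. The code was tested on simulated counts in which 200 genes were changed. On average 0.167% of them were called at 2-fold and 77% at 4-fold, the latter with 12 false calls. Only 200 of 11084 genes were changed there, whereas 41.6% were called in the data, so an adjusted p under 0.05 was harder to reach in the simulation. These recovered shares are thus no estimate of what the fit of the data recovers. A gene not called here may still differ by about 2-fold. Shares were compared by exact permutation tests over libraries. Libraries held 2020564 to 3296519 counts; the floor of 3 counts covers counting error only, while standard errors from edgeR include the spread between lines. Each group came from 3 lines, so p-values measure the spread between these lines. Gene lists, members and tests were chosen with earlier results of these data known. Named genes are those of at least 50 CPM in a group with the 12 largest fitted folds each way, those with the most counts, and members of the lists; some of them are not reported here. Replicate numbers were given in the labels of both groups, which do not say that the numbers pair lines. Same-numbered lines had correlations of 0.01, -0.04 and -0.08 in their deviations from the group means. Whether lines of both groups came from the same embryos is not given.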

Additional observations from a re-analysis of the deposited data

How the results depend on the processing

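Depth and 3 lines a group limit what can be called, most for genes of few counts. The count of 4614 genes called was 4624 with RLE size factors, 4625 with upper quartile scaling, 4595 without mitochondrially encoded genes, 4677 without a filter, 4075 with at least 10 CPM in at least 3 libraries, 5167 in DESeq2, 4394 in limma on deposited TPM, and 5632 with all 14 libraries in the fit. Limma on TPM called 1919 genes higher and 2475 lower, at a median log2 difference of -0.08 over all genes. Leaving out 1 library gave 3418 to 5219 called genes, and 1790 to 2736 past 2-fold against 2300. Leaving out neurosphere 2 and MEF 2, chosen after seeing the data, gave 4889. The KO comparison gave 4887 to 6225 called genes with 1 library left out. The interaction had 0 calls in edgeR, also with RLE and with each library left out, and 4 in DESeq2. Leading transcripts that differed numbered 110 by TPM in place of 53, and 50 to 61 with 1 library left out. The mitochondrial share by TPM was 32.5% in neurospheres and 12.6% in MEFs; with 1 library left out the difference in count share was 7.51 to 9.46 percentage points.

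A fit with the replicate number as a block called 3916 genes. The labels do not say that these numbers pair lines, so the block is not a known pairing. In deviations from the group means, neurosphere 1 correlated best with MEF 1 (0.01), neurosphere 2 with MEF 3 (0.07) and neurosphere 3 with MEF 2 (0.05). Each of those correlations was low. Whether lines of both groups share embryos is not given in the labels, and a fit with that other pairing was not run. Under the block Hoxa5 had a log2 difference of -1.90, Hoxb8 -2.29, Peg3 0.31 and Tgfb2 0.20.

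Of 282 called genes named in the text, 0 changed direction under the alternatives above or with 1 library left out, and 243 were called the same way in every setting where they were tested. Calls were lost for 24 without a filter, 6 in limma on TPM, 5 under the block, 3 in the fit of all 14 libraries, and 1 each in DESeq2 and with upper quartile scaling. With 1 library left out, from 5 (without MEF 2) to 15 (without MEF 1 or MEF 3) lost their call. In at least 1 of those fits 25 did. Each of the following genes was not called over all lines and changed sign in some setting; the cause was not tested. On TPM, Ezh2 had -0.23, Hira -0.33, Hoxa5 -0.81, Hoxb8 -1.09, Mest 0.13, Peg3 0.20, Tgfb2 0.16, Tuba1a -0.10 and Vcan 0.10. Peg3 had 0.033 with upper quartile scaling and 0.028 with at least 10 CPM. Without neurosphere 2 and MEF 2, Daxx had 0.031, Hira -0.18, Hoxa5 -6.69, Hoxb8 -9.08, Mest 0.72, Pdlim5 0.015, Tgfb2 1.01 and Tuba1a -0.032. Leaving out 1 library, Ezh2 ranged from -0.0090 to 0.15, Hira from -0.13 to 0.42, Hoxa5 from -6.43 to 3.50, Hoxb8 from -8.64 to 1.97, Mest from -0.96 to 0.92, Pdlim5 from -0.47 to 0.037, Peg3 from -0.47 to 0.74, Tgfb2 from -0.43 to 0.92 and Tuba1a from -0.026 to 0.37.

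Counts of list members also moved by more than 1.5 times under other settings. With all 14 libraries in the fit, 14 of 41 mitosis and G2/M genes were lower in place of 27, 15 of 28 Hox genes in place of 8, 9 of 17 integrins in place of 4, 14 of 39 Wnt genes in place of 9, 6 of 27 Polycomb genes in place of 3, 4 of 22 fatty acid binding and lipid transport genes in place of 2, and 4 of 18 serine, glycine and folate genes were higher in place of 2. In DESeq2, 15 of 34 Hox genes, 9 of 23 integrins, 10 of 20 Eph genes in place of 6, 5 of 24 fatty acid genes and 5 of 19 DNA methylation genes in place of 3 were lower. Cholesterol synthesis genes lower were 4 with RLE, 6 in DESeq2, 6 on TPM, 5 with all 14 libraries and 5 under the block, in place of 2. Glycolysis genes lower were 3 under the block in place of 5. Without a filter, 8 of 23 integrins and 5 of 40 imprinted genes in place of 8 were lower. With at least 10 CPM, 7 of 15 brain region factors in place of 11 and 3 of 20 Polycomb genes in place of 5 were higher, and 3 of 7 retinoid genes in place of 6 lower. Macrophage genes lower were 14 of 17 in DESeq2 and without a filter, 12 of 12 with all 14 libraries and 2 of 2 with at least 10 CPM.

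Counts of 3 or fewer called genes moved by 1 or 2 genes as well. Without MEF 2, 2 of 18 chemokine genes were higher in place of 1, 1 caveolae and 1 G2/M gene were higher, 1 neural adhesion gene was lower, and endothelial genes higher were 2 of 6. Without MEF 2 or neurosphere 3, 1 of 81 respiratory chain genes was lower. Unfolded protein genes higher were 0 of 25 without MEF 1 and 2 of 26 without MEF 2. Without MEF 1, 1 of 25 Polycomb genes and 1 of 6 endothelial genes were lower. Without neurosphere 1, 1 of 21 fatty acid genes was lower and 2 of 5 endothelial genes were higher. Meningeal genes higher were 2 of 6 without MEF 2 or neurosphere 2, and lower 2 of 6 without MEF 2 and 2 of 5 without MEF 3.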
